A study of Saccharomyces cerevisiae with 18 samples.

Results

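The comparison described here sets W303-Δsky1 cells under cisplatin against W303 cells under cisplatin, with 3 arrays for each strain. These are 6 of the 18 samples of the series, which derive from 12 arrays because each W303 array enters 2 of the 3 tables. The values of 5698 genes were kept from the 10715 probe sets on the array, namely every probe set annotated to *S. cerevisiae*, with the brightest one where several had the same annotation. A probe set shared by several genes counts as 1 gene, also where a member, such as *HXT13*, has a probe set of its own. The question addressed is which transcripts the absence of the Sky1 kinase alters in cells that are responding to the drug.

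W303 is a haploid laboratory strain of *S. cerevisiae* of mating type a, and W303-Δsky1 is its derivative without *SKY1*. Every culture thus carried the mutations of W303 in *ADE2*, *HIS3*, *LEU2*, *TRP1* and *URA3*, which block the synthesis of adenine, histidine, leucine, tryptophan and uracil, and in the arginine permease gene *CAN1*. Cultures of each strain in synthetic complete medium were divided in exponential phase, and the aliquots used here received 600 µM cisplatin, dissolved in DMSO, for 4 h in the dark. The other aliquots received DMSO without the drug. The 3 replicates of a group are separate cultures. The sources used here do not give how many isolates of the deletion strain were grown, and with 1 deletion strain an effect of the deletion and one of the isolate cannot be told apart.

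Sky1 is the SR protein kinase of budding yeast. Kinases of this family phosphorylate RNA-binding proteins rich in serine and arginine, and in yeast the best known substrate is the mRNA export factor Npl3. Cisplatin binds to nucleophilic groups, forming adducts on DNA and binding strongly to sulfur in cysteine, methionine and glutathione. Yeast makes the sulfur amino acids from sulfate, and the genes of that pathway are switched on together by the activator Met4 when sulfur compounds run short. Loss of *SKY1* is known to make yeast more tolerant of cisplatin.

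The labels were checked on the deleted gene first. *SKY1* (YMR216C) read 1.43, 1.17 and 1.03 on the 3 arrays of treated W303-Δsky1, and 7.98, 8.09 and 8.07 on those of treated W303 (log2 signal). The groups lay far apart, and in W303-Δsky1 the gene was at the background. This was set for each array at the 95th percentile of the signals of the fission yeast (*S. pombe*) probes that the array also carries, and lay between 1.30 and 1.35. The log2 difference was -6.84 (limma with Benjamini-Hochberg adjustment, adjusted p = 3.23e-09). Its size is limited by the background, since 2 of the 3 W303-Δsky1 arrays lay below that percentile. On either side of *SKY1* neither of the 2 nearest genes reached the 1.6-fold threshold. Adjacent to *SKY1* are *GAS3*, which encodes a cell wall protein (log2 difference -0.31), and *GUA1*, GMP synthase (-0.01), and next to these *SCJ1*, a chaperone of the endoplasmic reticulum (-0.25), and *TRS130*, a trafficking complex subunit, which lay close to the threshold (0.65, limma, adjusted p = 1.35e-05). *TRS130* passed that threshold when arrays were centred on their medians and without W303-Δsky1 cisplatin replicate 1 (0.68 in each case).

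Above this background were 98.6% to 99.1% of the genes of these 6 arrays, and the median log2 signal of the genes was between 6.84 and 6.91. Arrays of 1 strain correlated with r between 0.996 and 0.998, and arrays of different strains with r between 0.957 and 0.960. The median SD within a group was 0.08 for W303-Δsky1 and 0.07 for W303 on the log2 scale. As markers of the mating type, the a-specific genes *MFA1*, *MFA2*, *STE2*, *STE6* and *BAR1* read between 6.03 and 9.98 in both strains, and the α-specific genes *MF(ALPHA)1*, *MF(ALPHA)2* and *STE3* between 1.40 and 2.33. *SAG1*, the α-agglutinin gene, is also counted among the α-specific genes but read between 6.70 and 7.02 in both. RMA gives the arrays of a table the same distribution of probe intensities, so that all values are relative to the whole set of transcripts. It does not equalise the summarised gene signals. Their medians lay between 6.84 and 6.86 on the W303-Δsky1 arrays and between 6.87 and 6.91 on the W303 arrays. The cultures were measured in bulk, so that fewer cells with a transcript and less of it in each cell cannot be told apart.

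Differentially expressed genes (DEGs) had to differ by 1.6-fold or more, which is 0.68 on the log2 scale, and to reach in limma both an unadjusted p below 0.01 and, after Benjamini-Hochberg adjustment, a p below 0.05. By this rule 1136 genes were DEGs, 19.9% of those tested. Of these, 500 genes (8.78%) were upregulated in W303-Δsky1 and 636 (11.2%) downregulated. Changes of at least 2-fold were seen for 196 upregulated and 236 downregulated genes. An adjusted p under 0.05 without regard to size was reached by 4023 genes (70.6%), of which 1869 (32.8%) were higher and 2154 (37.8%) lower in W303-Δsky1. The 3 arrays of one strain lay all above or all below the 3 of the other for 73.9% of the genes, and this held for each of the 1136 DEGs. The median log2 difference over all genes was -0.03. Counts of DEGs in the gene groups below are to be read against the shares of all genes, 8.78% up and 11.2% down.

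**Figure D1:**
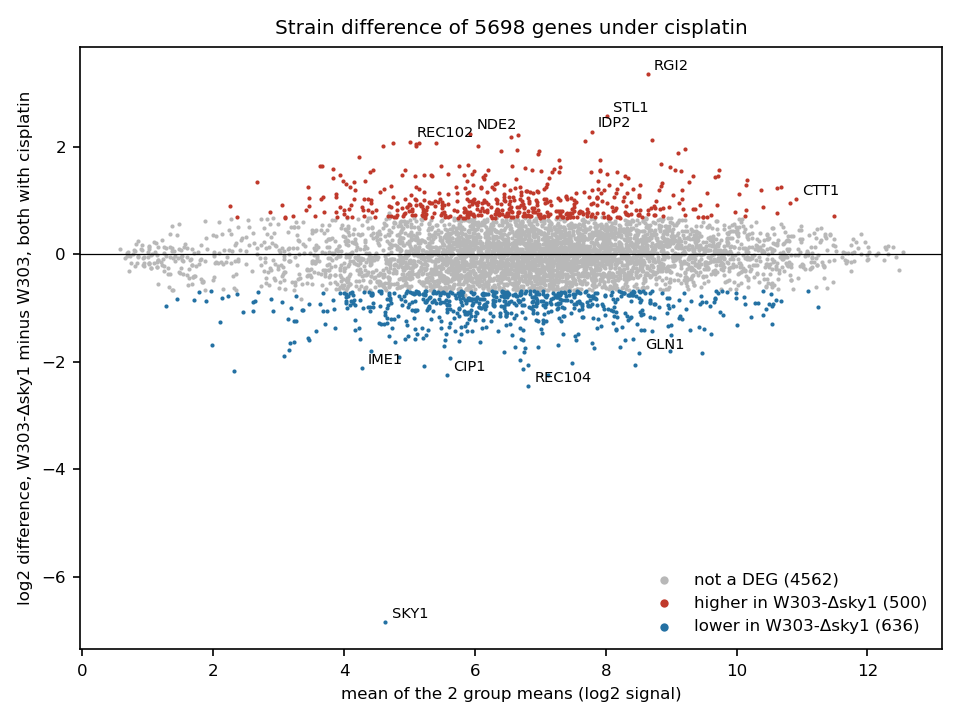
Strain difference of each of 5698 genes under cisplatin. The x axis gives the mean of the group means (log2 signal) and the y axis the log2 difference, W303-Δsky1 minus W303; red points are the 500 upregulated DEGs, blue points the 636 downregulated DEGs and grey points the other genes, and *SKY1* stands alone at -6.84.

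The gene with the largest rise was *RGI2* (YIL057C), which encodes a small protein induced in respiring cells. It read 10.37, 10.32 and 10.26 in treated W303-Δsky1, against 6.96, 7.01 and 6.92 in treated W303. This is a 10.2-fold higher signal, or 3.35 on the log2 scale (limma, adjusted p = 5.81e-09), and no array of one strain came near those of the other. Its paralog *RGI1* was not a DEG, with 11.54, 11.78 and 11.82 in W303-Δsky1 and 11.62, 11.72 and 11.73 in W303, where the groups overlap (log2 difference 0.02, limma, adjusted p = 0.839). Next was *STL1* (YDR536W), which encodes the glycerol and proton symporter of the plasma membrane, with 9.33, 9.28 and 9.28 in W303-Δsky1 against 6.78, 6.74 and 6.67 in W303. It rose 5.92-fold (log2 difference 2.57, limma, adjusted p = 2.83e-08).

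The following 13 rises lay between 4.05-fold and 4.87-fold. A group of 5 serves the use of carbon sources other than glucose, namely *IDP2*, cytosolic isocitrate dehydrogenase (log2 difference 2.28), *NDE2*, an external NADH dehydrogenase of mitochondria (2.25), *ADY2*, an acetate transporter (2.12), *FBP1*, fructose-1,6-bisphosphatase (2.08), and *SFC1*, the succinate-fumarate carrier (2.02). *AGX1*, the alanine-glyoxylate aminotransferase (2.23), and *PUT4*, the proline permease (2.14), belong to amino acid metabolism. *FIT1*, a cell wall mannoprotein that retains siderophore iron (2.18), is the neighbour of *STL1* on its chromosome among the genes measured. The remainder are *REC102*, which acts in meiotic recombination (2.10), *DIN7*, a mitochondrial nuclease known from the response to DNA damage (2.02), YGR067C (2.08), YLR342W-A (2.05) and the probe set of snR73 and YMR013W-A, which cannot be told apart on this array (2.06).

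After *SKY1*, the largest fall was that of *REC104* (YHR157W), another gene of meiotic recombination. It read 5.57, 5.55 and 5.65 in treated W303-Δsky1, against 8.15, 7.96 and 8.00 in treated W303, a log2 difference of -2.45 (limma, adjusted p = 7.27e-08). *SEO1* (YAL067C), a putative permease of the Dal5 family, followed with 6.12, 5.88 and 5.99 in W303-Δsky1 and 8.30, 8.26 and 8.20 in W303. The signal was 4.77-fold lower in W303-Δsky1 (log2 difference -2.25, limma, adjusted p = 1.09e-07). *CIP1*, which encodes an inhibitor of cyclin-dependent kinase, fell by 2.25 on the log2 scale and *MET8*, of siroheme synthesis, by 2.14. *IME1*, the master regulator of meiosis, fell by 2.11, the probe set shared by the acid phosphatase genes *PHO11* and *PHO12* by 2.08, *CHA1*, the serine and threonine deaminase, fell by 2.07 and *PHO89*, a phosphate transporter, fell by 2.07. *MNC1* (-2.03) and YGR035C (-1.90) were also among the 15. The other 3 named genes, *RIX7* (-1.96), *BFR2* (-1.93) and *FYV7* (-1.92), encode factors of ribosome assembly. YDL241W was not above background on any W303-Δsky1 array (mean 1.23, against 3.41 in W303) and was at least 4.20-fold lower in that strain, taking the background as its highest possible level there (limma, adjusted p = 1e-06).

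**Figure D2:**
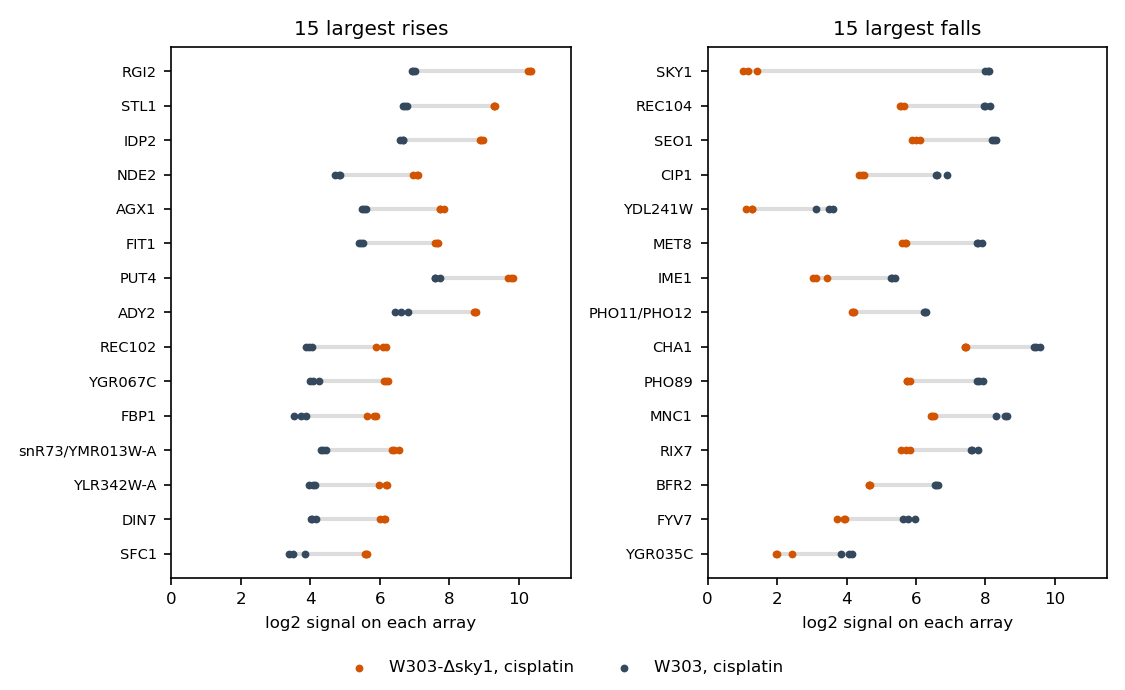
Log2 signal on each array (x axis) for the 15 largest rises and the 15 largest falls among the DEGs (rows). Orange points are the 3 arrays of W303-Δsky1 with cisplatin and dark points those of W303 with cisplatin, and grey bars join the group means. Genes were chosen among those whose groups do not overlap, so the 2 sets of points are apart in every row by choice.

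Genes of sulfate assimilation were lower in W303-Δsky1. Of the 10 genes for the uptake and reduction of sulfate, 9 were downregulated DEGs and 0 upregulated, with a median log2 difference of -1.34, against -0.03 over all genes. The study singled out 8 of the 10, with *SEO1*, *STR3* and *MET32*, on these same samples, so that their direction is not independent evidence. *SUL2*, a sulfate permease, read 7.32, 7.25 and 7.28 in W303-Δsky1 and 8.53, 8.48 and 8.42 in W303 (log2 difference -1.20, limma, adjusted p = 4.62e-07). *MET3*, the ATP sulfurylase that activates sulfate, read 6.74, 6.76 and 6.76 in W303-Δsky1 and 8.38, 8.26 and 8.41 in W303 (-1.60, adjusted p = 2.25e-07). For both genes the arrays of the strains were well separated. The adenylylsulfate kinase gene *MET14* fell by 1.43 and *MET16*, PAPS reductase, by 1.68. The genes of sulfite reductase fell by 1.35 (*MET5*) and by 0.91 (*MET10*). *MET8* and *MET1*, which make the siroheme cofactor of that enzyme, fell by 2.14 and 1.34. *MET8* had the largest change of the pathway, with 5.70, 5.71 and 5.61 in W303-Δsky1 against 7.89, 7.75 and 7.79 in W303 (limma, adjusted p = 8.16e-08). The phosphatase gene *MET22* fell by 0.93. The exception was *SUL1*, the other sulfate permease, at 7.66, 7.63 and 7.75 in W303-Δsky1 and 8.15, 7.98 and 8.00 in W303. Its groups did not overlap either, but the difference of -0.36 (limma, adjusted p = 0.000995) was under the 1.6-fold threshold.

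Further along the pathway the differences were smaller. Of 14 genes for the incorporation of sulfur and for methionine synthesis, 6 were downregulated and 1 was upregulated, with a median of -0.64. *STR3* and *CYS4*, which act between homocysteine and cysteine, had -1.28 and -1.19, *CYS3*, cystathionine γ-lyase, had -1.02 and *MET2*, homoserine acetyltransferase, -0.94, and all of these were DEGs. *IRC7*, a β-lyase gene, fell by 1.58. *MET17*, which joins sulfide to acetylhomoserine, and *MET6*, methionine synthase, had differences of -0.64 (limma, adjusted p = 1.01e-05) and -0.63 (adjusted p = 1.61e-05), close to the threshold and below it. The upregulated gene was *MET13*, a methylenetetrahydrofolate reductase (0.70), which was under the threshold without W303 cisplatin replicate 3 (0.66). In the AdoMet cycle and methionine salvage 6 of 12 genes were downregulated and 0 upregulated (median -0.56). *ADI1*, a dioxygenase of methionine salvage, fell by 1.34, *SAH1*, which hydrolyses AdoHcy, by 1.31, and the AdoMet synthetase gene *SAM1* by 0.89.

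Of the 10 genes in the group of sulfur compound permeases, 6 were downregulated and 0 upregulated, with a median of -0.97. Besides *SEO1* these were the S-methylmethionine permease gene *MMP1* (log2 difference -1.73), the cysteine transporter gene *YCT1* (-1.25) and the methionine permease genes *MUP1* (-1.01) and *MUP3* (-0.93). The other was *DAL5* (-1.42), an allantoate permease gene of the same family as *SEO1*, which the count and the median include. *SAM3*, an AdoMet permease gene, had -0.62 (limma, adjusted p = 4.45e-05) and was not a DEG. Of the 6 regulators of the network, 1 was a DEG, *MET32*, a DNA-binding partner of Met4, with 5.24, 5.37 and 5.34 in W303-Δsky1 and 6.30, 6.47 and 6.52 in W303 (-1.11, limma, adjusted p = 2.32e-06). The activator gene *MET4* itself had 0.18, its cofactor genes *MET28* and *CBF1* -0.33 and 0.30. In the glutathione and thioredoxin system 1 gene rose, *GLR1*, glutathione reductase (0.73), and 1 fell, *MXR1*, methionine sulfoxide reductase (-0.92), of 20. Those counts were 2 up without W303 cisplatin replicate 3 and 2 down without W303 cisplatin replicate 1. The genes of glutathione synthesis, *GSH1* and *GSH2*, had 0.17 and 0.34 and were not DEGs.

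**Figure D3:**
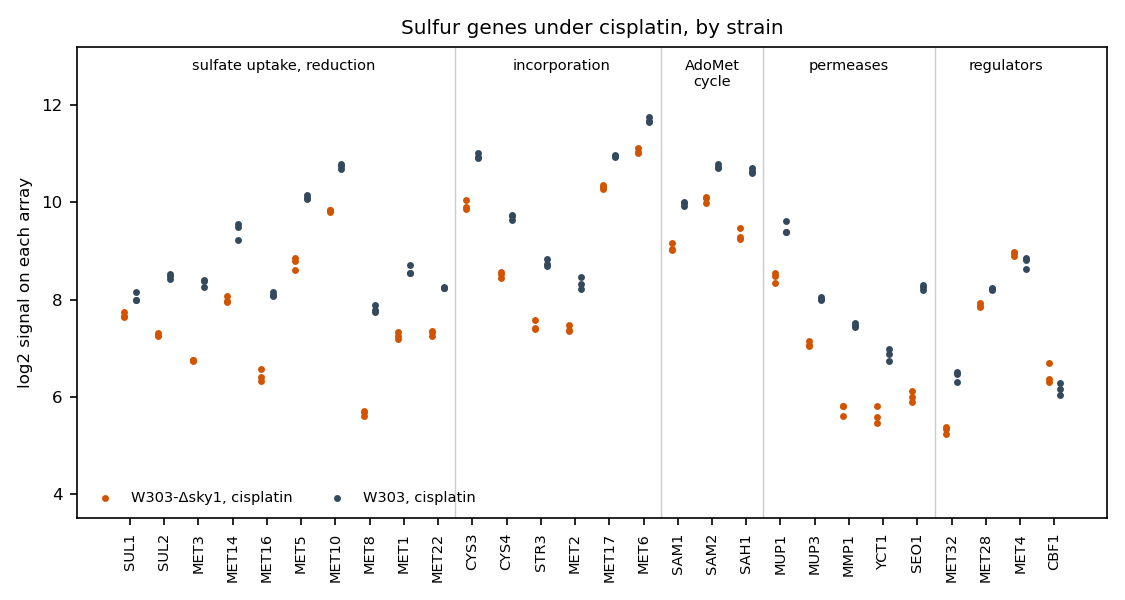
Log2 signal on each array (y axis) for 28 sulfur genes ordered by their role (x axis). Orange points are W303-Δsky1 with cisplatin and dark points W303 with cisplatin, 3 arrays each; the sulfate genes other than *SUL1* lie lower in W303-Δsky1 by 0.91 to 2.14, and *MET4* and *CBF1* do not.

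For most of these genes the other comparisons of the series gave values of another size. Without cisplatin the sulfate uptake and reduction genes had a median strain difference of -0.12, with 0 downregulated and 1 upregulated. That was *SUL1*, with 1.41 without the drug, against -0.36 with it. *MET3* had 0.24, *MET16* 0.10, *MET8* -0.40 and *SEO1* -0.39 without the drug, and none of these was a DEG there. In W303 alone, cisplatin against no cisplatin, all 10 sulfate genes were upregulated, with a median of 2.88, and *SEO1* had 4.83, *MET3* 3.69, *MET8* 3.10 and *SUL2* 3.13. That comparison uses the same 3 treated W303 arrays as the one described here, so that the opposite signs are not independent of each other. Of the genes that fell here, *IRC7* (-0.10), *SAH1* (0.13) and *DAL5* (-0.35) were not DEGs in it.

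Genes for growth without glucose were higher in W303-Δsky1. Of 21 genes of the glyoxylate cycle and gluconeogenesis 14 were upregulated and 1 downregulated, with a median log2 difference of 0.96. In addition to *IDP2*, *FBP1*, *SFC1* and *ADY2*, they include *PCK1*, phosphoenolpyruvate carboxykinase, at 7.54, 7.56 and 7.61 in W303-Δsky1 and 5.98, 5.94 and 5.99 in W303 (1.6 on the log2 scale, limma, adjusted p = 1.3e-07). *ICL1* and *MLS1*, the enzymes particular to the glyoxylate cycle, rose by 1.44 and 0.96, the lactate permease gene *JEN1* by 1.57, and the alcohol and aldehyde dehydrogenase genes *ADH2* and *ALD6* by 1.39 and 1.25. The transcription factor genes *CAT8* and *SIP4*, whose products activate this group, rose by 0.77 and 0.91. *MDH2*, cytosolic malate dehydrogenase, was the downregulated member, at 9.25, 8.99 and 9.00 in W303-Δsky1 and 9.95, 9.83 and 9.76 in W303 (-0.77, limma, adjusted p = 5.35e-05).

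Of 18 genes of fatty acid oxidation and the carnitine shuttle 10 were upregulated and 0 downregulated (median 0.71). The enzymes of peroxisomal β-oxidation rose together, by 1.94 for *POX1*, acyl-CoA oxidase, 1.27 for *FOX2* and 1.67 for *POT1*, 3-ketoacyl-CoA thiolase. *POX1* read 7.60, 7.59 and 7.64 in W303-Δsky1 and 5.80, 5.55 and 5.68 in W303 (limma, adjusted p = 2.25e-07). *YAT1*, a carnitine acetyltransferase, rose by 1.36, and *PXA1*, a subunit of the peroxisomal fatty acid transporter, by 1.22. Peroxisome biogenesis held fewer DEGs, with 3 of 28 genes up and 0 down (median 0.16). This and the next counts are to be read against 8.78% up and 11.2% down among all genes. In the TCA cycle 3 of 23 genes rose, among them *ODC2*, a mitochondrial oxodicarboxylate carrier (1.22), and *LSC1* (1.14), and 3 fell, among them *CIT3* (-1.18) and *IDP1* (-0.85). Of 45 genes of the respiratory chain and ATP synthase 5 rose and 1 fell, with *CYB2*, the lactate dehydrogenase of mitochondria, at 1.29 and *CYC1*, the main cytochrome c gene, at -0.88.

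The reserve carbohydrates and general stress genes had counts above the 8.78% of all genes that rose. Of 20 genes of trehalose and glycogen metabolism 7 were upregulated and 1 downregulated (median 0.45), among them *PIG2* (1.28), *GDB1*, the glycogen debranching enzyme (1.19), *ATH1*, acid trehalase (1.06), and *TSL1*, of trehalose synthesis (0.95). The 1 that fell was *GAC1*, a targeting subunit of the phosphatase that activates glycogen synthase (-1.23). Of 26 stress reporters 8 rose and 1 fell (median 0.33). Besides *RGI2* these include *PNS1* (1.96), *PHM7* (1.56), *SIP18* (1.42), *XBP1*, a stress-induced repressor (1.15), and *CTT1*, cytosolic catalase, which read 11.35, 11.52 and 11.40 in W303-Δsky1 and 10.43, 10.48 and 10.25 in W303 (1.03, limma, adjusted p = 5.24e-06). *MSN4*, which encodes an activator of stress genes, fell by 1.25. The heat shock chaperones had 1 of 27 genes up, *AHA1* (0.85), and 2 down, and peroxide and superoxide defence 3 of 15 up, among them *GPX1* (0.83), and 0 down. Without W303-Δsky1 cisplatin replicate 2 the chaperones had 1 up and 0 down, and the defence genes 2 up and 2 down. The chaperones had 1 up and 1 down without W303 cisplatin replicate 1 or W303-Δsky1 cisplatin replicate 3. Of 10 maltose genes 5 rose and 0 fell, with *MPH2*, a transporter gene, highest at 1.80 and *IMA5*, an isomaltase, at 1.23. A probe set that *MPH2* shares with *MPH3*, another transporter gene, had 1.64, so that these members are not all separate genes. Of 18 hexose transporter genes 2 rose, *HXT1*, a low-affinity transporter (1.55), and *SNF3*, a glucose sensor (0.74), and 0 fell, or 1 without W303-Δsky1 cisplatin replicate 2. In glycerol metabolism *GUT1*, glycerol kinase, rose by 1.55.

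Genes of ribosome assembly were lower in W303-Δsky1. Of 54 genes of the small subunit processome, which cleaves the precursor of 18S rRNA, 34 were downregulated and 0 upregulated, with a median log2 difference of -0.87. An adjusted p under 0.05 was reached by 51 of them in that direction and by 1 in the other, against 37.8% and 32.8% of all genes. *BFR2* read 4.64, 4.69 and 4.64 in W303-Δsky1 and 6.56, 6.58 and 6.63 in W303 (-1.93, limma, adjusted p = 7.27e-08). *UTP15* fell by 1.82, *NOP56*, of the box C/D particles, by 1.75, *SOF1* by 1.73, *RRP9*, of the U3 particle, by 1.47, and *IMP3* by 1.40. Of 68 genes for assembly of the large subunit 44 were downregulated and 0 upregulated (median -0.76), with *RIX7*, an AAA ATPase (-1.96), the helicase gene *DBP2* (-1.80), *MAK16* (-1.63) and *MRT4* (-1.60) at the low end. Leaving out each array in turn gave 38 to 45 downregulated. *RIX7* read 5.83, 5.57 and 5.70 in W303-Δsky1 and 7.79, 7.57 and 7.62 in W303 (limma, adjusted p = 3.57e-07). Of 22 genes of RNA polymerase I and its factors 9 fell and 1 rose (median -0.54). The subunit genes *RPA49*, *RPC40* and *RPA34* had -1.61, -1.19 and -0.96, and *RRN11*, of the core factor, -1.36. The gene that rose was *RRN3*, an initiation factor (0.73), which was under the threshold without W303-Δsky1 cisplatin replicate 1 (0.64).

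For the proteins of the ribosome itself the counts were below the 19.9% of all genes. Of 76 genes for cytosolic large subunit proteins 1 rose and 1 fell (median 0.10), and of 54 for the small subunit 3 rose and 1 fell (median 0.04). Those of the small subunit that rose were *RPS14B* (1.32), *RPS26A* (0.82) and *RPS22B* (0.79). Their paralogs differ little in sequence, so that part of each signal may come from the other copy. Without W303-Δsky1 cisplatin replicate 1 neither set had a gene that fell. Without W303 cisplatin replicate 3 the large subunit set had 2 up and 0 down. In W303 alone, cisplatin against no cisplatin, the medians of these sets were -0.52 and -0.54. Of 66 mitochondrial ribosomal proteins 2 rose and 4 fell, with *MRPL40* lowest at -0.96, and 4 rose without W303-Δsky1 cisplatin replicate 3. Of 20 aminoacyl-tRNA synthetase genes 0 rose and 3 fell, with *KRS1*, for lysine, at -1.09, against 11.2% of all genes that fell. An adjusted p under 0.05 as lower in W303-Δsky1 was reached by 19 of the 20 (median -0.39), and by 37.8% of all genes.

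**Figure D4:**
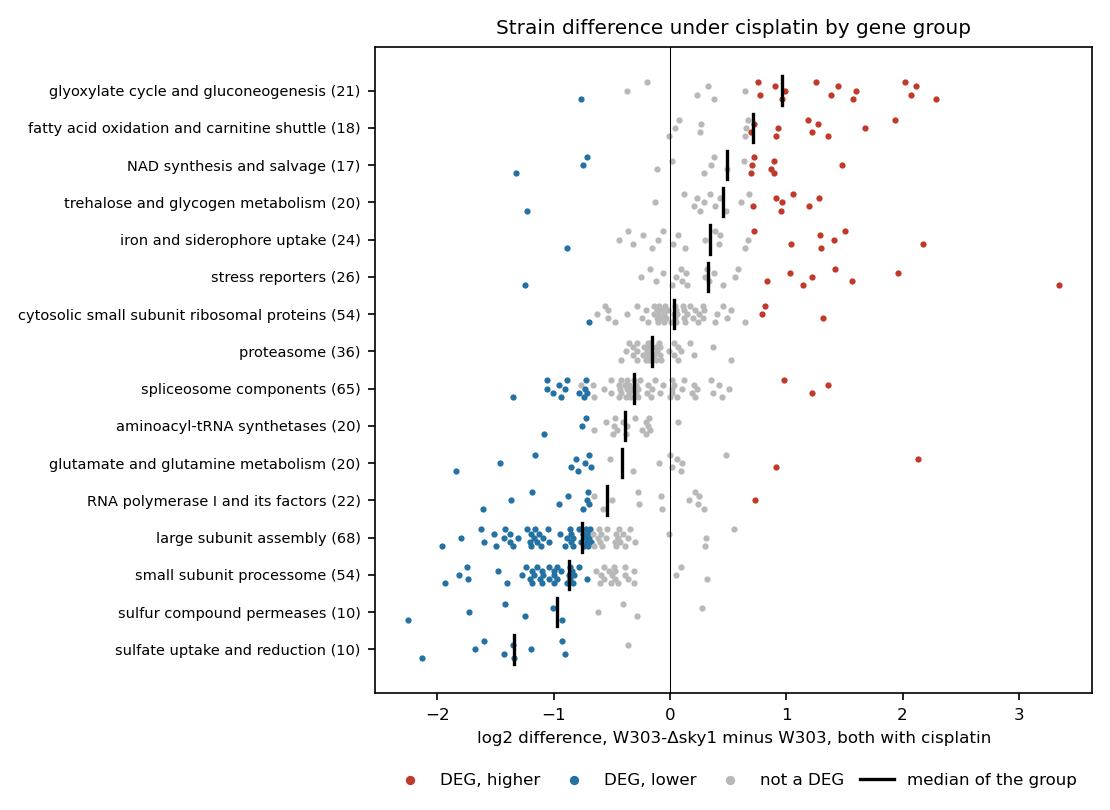
Log2 difference, W303-Δsky1 minus W303, both with cisplatin (x axis), for each measured gene of 16 groups (rows, number of genes in brackets). Red and blue points are up- and downregulated DEGs, grey points other genes and black bars group medians, which run between 0.96 for the glyoxylate cycle and -1.34 for sulfate uptake and reduction.

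Among the genes closest to the known work of Sky1, 2 of the 8 SR-like mRNA-binding proteins and partners were downregulated and 0 upregulated. Over all genes 11.2% were downregulated and 8.78% upregulated. *HRP1*, a nuclear factor of mRNA 3′ end formation and export, read 8.22, 8.33 and 8.28 in W303-Δsky1 and 9.63, 9.63 and 9.58 in W303 (log2 difference -1.33, limma, adjusted p = 2.99e-07). *NPL3* read 10.84, 10.69 and 10.72 in W303-Δsky1 and 11.38, 11.45 and 11.48 in W303, and its difference of -0.68 sat on the threshold. It was -0.65 with median centring, and without W303 cisplatin replicates 2 and 3 or W303-Δsky1 cisplatin replicates 2 and 3 it was between -0.68 and -0.66, just under the threshold each time. The SR-like genes *GBP2* and *HRB1* had 0.33 and -0.43 and were not DEGs. The count of SR-like genes that fell was 1 in each of these settings that left out an array. Of 65 spliceosome genes 13 fell and 3 rose (median -0.31), against 11.2% and 8.78% of all genes. *LUC7* (-1.35) and *PRP39* (-1.01), both of the U1 particle, *SME1* (-1.06) and *SMD3* (-0.94), of the Sm ring, and *HSH155* (-1.06), of U2, were lower. *CUS2* (1.36), a factor that acts on U2, *MUD1* (1.22), also of U1, and *SPP382* (0.98), of spliceosome disassembly, were higher.

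In nitrogen metabolism 9 of 20 genes for glutamate and glutamine fell and 2 rose (median -0.41). *GLN1*, glutamine synthetase, read 7.64, 7.51 and 7.60 in W303-Δsky1 and 9.47, 9.39 and 9.42 in W303 (-1.84, limma, adjusted p = 1.09e-07). The NADPH-dependent glutamate dehydrogenase genes *GDH3* and *GDH1* fell by 1.46 and 0.79, while *GDH2*, the enzyme that degrades glutamate, rose by 0.91. *PUT4* and *PUT1*, the permease and the first enzyme of proline use, moved in opposite directions (2.14 and -1.16). The ammonium permease gene *MEP2* fell by 1.65 and the general amino acid permease gene *GAP1* by 0.73. *GNP1*, a glutamine permease, rose by 1.30. Of 55 genes of amino acid synthesis outside the sulfur pathway 8 fell and 2 rose, a share of DEGs close to the 19.9% of all genes. *LYS4* and *LYS1*, of lysine synthesis, had -1.48 and -1.15, *SER33*, of serine synthesis, -1.11, and *ARG3* 1.10. In pyrimidine synthesis and nucleobase uptake 8 of 26 fell and 2 rose, with *URA1*, dihydroorotate dehydrogenase, at -1.84. The count that rose was 1 without W303 cisplatin replicate 3 or W303-Δsky1 cisplatin replicate 3.

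NAD genes moved in both directions, with 7 of 17 up and 3 down (median 0.49). Among all genes 8.78% rose and 11.2% fell, and the NAD, iron, copper and phosphate counts are to be read against these shares. *BNA4* rose by 1.48 and *BNA5* by 0.90, both of the kynurenine branch, and *BNA3*, kynurenine aminotransferase, fell by 1.32. In iron uptake 7 of 24 genes were upregulated and 1 downregulated (median 0.34). *FIT1* and *FIT2*, of the cell wall, rose by 2.18 and 1.50, *FET3*, the multicopper oxidase of high-affinity uptake, by 1.41, the siderophore transporter genes *SIT1* and *ARN1* by 1.30 and 1.29, and *FRE3*, a siderophore reductase, by 1.04. *HMX1*, haem oxygenase, fell by 0.89. Of 13 copper genes 2 rose, among them *CTR3*, a copper transporter (1.48), and 1 fell, *COX17*, a copper chaperone (-0.80). Of 24 phosphate genes 7 fell and 3 rose. *PHO89* and *PHO84*, both phosphate transporters, fell by 2.07 and 1.20, and the phosphatase gene *PHO5* by 1.11. *PHO3*, a phosphatase gene of the thiamine group, fell by 1.24. *PHO89* read 5.74, 5.74 and 5.84 in W303-Δsky1 and 7.93, 7.75 and 7.83 in W303 (limma, adjusted p = 1.09e-07). *PHO85*, the cyclin-dependent kinase that restrains *PHO5*, *PHO84* and *PHO89*, rose by 0.75.

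Counts in DNA repair were small and are to be read against 19.9% DEGs among all genes. In homologous recombination 2 of 13 fell, among them *RAD50* (-0.91), and 1 rose. In nucleotide excision repair 1 of 15 genes was a DEG, and in postreplication, translesion and crosslink repair 1 of 12, *RAD6*, a ubiquitin-conjugating enzyme (-0.86). Without W303-Δsky1 cisplatin replicate 1 the recombination genes had 0 up and 1 down, without W303 cisplatin replicate 1 or W303-Δsky1 cisplatin replicate 3 they had 1 up and 1 down, and excision repair had 0 DEGs without W303 cisplatin replicate 1. Of 16 DNA damage reporters 2 rose and 1 fell. *DIN7* read 6.16, 6.02 and 6.13 in W303-Δsky1 and 4.06, 4.02 and 4.18 in W303 (2.02, limma, adjusted p = 1.3e-07), and *HUG1*, an inhibitor of ribonucleotide reductase, rose by 0.97. The reductase genes did not follow one direction, with *RNR1* at -1.04, *RNR4* at -0.46 and *RNR3* at 0.26, the last 2 being under the threshold. The ASTRA and Tel2 complexes help assemble the checkpoint kinases. In the group of these complexes and of PI3K-like kinases 3 of 9 genes rose and 1 fell. The study chose *ASA1* and *TTI2* on these samples. *ASA1* read 8.49, 8.47 and 8.53 in W303-Δsky1 and 7.44, 7.36 and 7.29 in W303 (1.13, limma, adjusted p = 7.61e-07), *TTI2* rose by 0.87, and *RVB1*, a helicase, fell by 1.04. *TTI1*, at 0.72, was under the threshold without W303 cisplatin replicate 3 (just under, at 0.68) and without W303-Δsky1 cisplatin replicate 3 (0.67).

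Of 28 genes of the pheromone response and a-specific genes 5 fell and 2 rose, or 1 without W303-Δsky1 cisplatin replicate 1. Over all genes 11.2% fell and 8.78% rose. *MFA2*, a pheromone gene, read 8.17, 8.10 and 7.99 in W303-Δsky1 and 9.77, 9.98 and 9.92 in W303 (-1.80, limma, adjusted p = 2.99e-07), while *MFA1*, which encodes the same kind of pheromone, had -0.26. *BAR1*, the protease that degrades α-factor, fell by 1.73 and *STE12*, the transcription factor of the pathway, by 1.14. The receptor gene *STE2* (-0.39) and the transporter gene *STE6* (-0.60) were not DEGs. Of 24 early meiotic genes, which serve sporulation of diploids, 5 rose and 4 fell. *REC102* read 5.89, 6.18 and 6.10 in W303-Δsky1 and 3.88, 4.04 and 3.96 in W303, and *SPO11* and *DMC1* rose by 1.34 and 1.15. The products of *REC102* and *REC104* work in one complex, and *REC104* fell. *IME1* read 3.14, 3.44 and 3.05 in W303-Δsky1 and 5.38, 5.30 and 5.28 in W303, while *IME2*, a kinase gene that it is known to activate, rose by 0.79. *LIN1*, next to *REC104*, fell by 1.05.

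Of 25 genes of cell wall mannoproteins 4 rose and 1 fell (median 0.02). *CWP1*, a mannoprotein, rose by 1.04 and *FLO1*, a flocculin, by 1.53, and *PAU24* was lowest at -0.87. Of 22 genes of cell wall remodelling 2 rose and 3 fell (median -0.28). There *EXG1*, an exoglucanase, fell by 1.58, and *DSE1* was highest at 0.89. Of 26 ergosterol genes 5 fell, led by *ERG5* (-1.72), and 2 rose, led by *ERG27* (1.05). Of 20 drug pump genes 2 rose, among them *PDR15* (1.54), or 1 without W303-Δsky1 cisplatin replicate 1, and 0 fell. Of 15 polyamine genes 3 rose, among them *DUR3*, a polyamine and urea transporter (1.64), and 1 fell, *OAZ1*, the antizyme (-1.52). The shares over all genes were 8.78% up and 11.2% down. The 36 proteasome genes and the 10 histone genes held 0 DEGs by limma. Of these, 24 and 6 had an unadjusted p under 0.05 and 23 and 6 an adjusted p under 0.05, which 70.6% of all genes reached. The members farthest from 0 were *PUP3* (0.52) and *RPT4* (-0.42), and *HHT1* (-0.64), which passed the threshold without W303-Δsky1 cisplatin replicate 2 (-0.69).

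Genes known only by a single systematic name, 470 in all, held 66 upregulated (14.0%) and 39 downregulated DEGs (8.3%). All other genes held 434 (8.3%) and 597 (11.4%), and probe sets labelled with several systematic names are counted among these. YMR206W read 7.17, 7.09 and 6.92 in W303-Δsky1 and 5.16, 4.99 and 4.99 in W303 (2.01), and YHR033W 10.10, 9.99 and 10.03 in W303-Δsky1 and 8.12, 8.23 and 8.13 in W303 (1.88, limma, adjusted p = 1.09e-07). By chromosome, the median log2 difference lay between -0.10 on chromosome XIV, with 383 genes, and 0.10 on chromosome VI, with 119. The share of upregulated genes lay between 4.44% on chromosome XIV and 12.5% on chromosome I.

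The strains were also compared without the drug, on 6 other arrays normalized apart. There 582 genes were DEGs (10.2%), 281 upregulated (4.93%) and 301 downregulated (5.28%). Of the 500 genes upregulated under cisplatin, 204 were upregulated without it, which is 40.8% of the first and 72.6% of the second list. Of the 636 downregulated genes 225 were downregulated without it, 35.4% and 74.8% of the lists. The differences with and without cisplatin had r = 0.80 across 5697 genes other than *SKY1*, which are not independent replicates. The 295 genes called as upregulated with the drug alone had a median difference of 0.82 with cisplatin and 0.43 without, and 222 of them were also higher without it at an adjusted p under 0.05. For the 410 called as downregulated with the drug alone the medians were -0.85 and -0.44, and 311 were also lower without it. Whether the strain difference itself depends on the drug was not tested, because the tables were normalized separately.

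Beside each other, the groups had these medians with and without cisplatin. The small subunit processome had -0.87 and -0.57, assembly of the large subunit -0.76 and -0.49, the glyoxylate cycle and gluconeogenesis 0.96 and 0.41, fatty acid oxidation 0.71 and 0.32, trehalose and glycogen 0.45 and 0.08, NAD genes 0.49 and 0.61, and amino acid synthesis outside the sulfur pathway -0.19 and 0.12. Single genes with a large difference under cisplatin and little without it include *ADY2* (2.12 and 0.00), *GRX8*, a glutaredoxin (-1.57 and -0.07), *PLM2*, a transcription factor (1.41 and 0.07), *GNP1* (1.30 and 0.06), *SUC2*, invertase (1.11 and 0.08), *GTO3*, a glutathione transferase (1.25 and 0.23), and *CMK2*, a calmodulin-dependent kinase (-1.15 and -0.06). The value of *ADY2* without the drug may be imprecise. In W303 its response to cisplatin of -1.21 did not reach significance (limma, adjusted p = 0.0767). *SFC1* (2.02 and 2.45), *FBP1* (2.08 and 2.25), *GDH3* (-1.46 and -1.87) and *HRP1* (-1.33 and -1.45) had differences that lay closer together, and those without the drug were the larger.

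**Figure D5:**
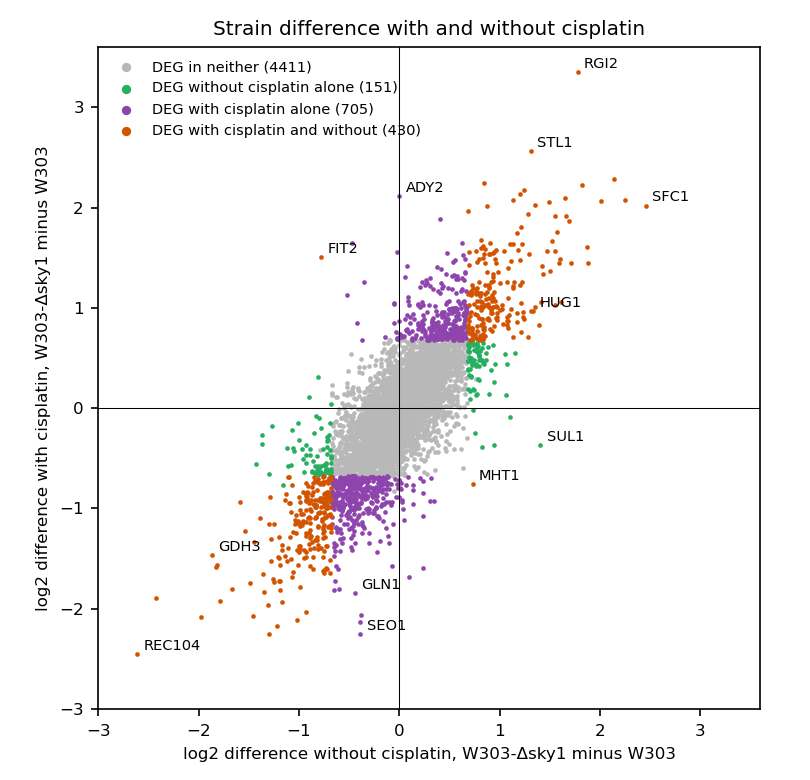
Log2 difference with cisplatin (y axis) against that without cisplatin (x axis), W303-Δsky1 minus W303 in both, for 5697 genes other than *SKY1*. Orange points are DEGs with and without the drug, purple points with it alone (295 up, 410 down), green points without it alone (76 up, 75 down) and grey points neither; *FIT2* and *MHT1* lie in the quadrants of opposite sign.

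The response of W303 to cisplatin, which shares the 3 treated W303 arrays, gave 177 DEGs (3.11%), 90 upregulated (1.58%) and 87 downregulated (1.53%). Several genes with a large strain difference under cisplatin had values of the other sign in it. *STL1* had -1.80 there against 2.57 here, *CWP1* -1.47 and 1.04, *PRM10* -1.30 and 1.55, *ALD6* -1.01 and 1.25, and *BNA3* 2.15 and -1.32, *SER33* 2.53 and -1.11, *GRX8* 2.57 and -1.57. Other genes with a large strain difference had little response in W303, such as *RGI2* (-0.31), *IDP2* (0.09), *UTP15* (0.11) and *GLN1* (-0.40). A high or low reading of the shared arrays enters both values with opposite signs, and no test was made across the comparisons.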

How the data were processed

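Yeast RNA was measured on Affymetrix GeneChip arrays, and the authors summarised the signals by RMA, on 6 arrays at a time, so that the 3 deposited tables of log2 values are each on a scale of their own. All 18 value columns were matched to samples and 0 were left out. The deposited tables also hold the authors' own fold changes, p-values and adjusted p-values for each comparison, which were not used. The labels and the methods give different amounts of starting RNA. There are 5714 probe sets for *S. cerevisiae* genes and 4948 for *S. pombe* genes. Annotations with several probe sets were reduced to the brightest, which removed 16, and 123 shared by several genes were kept. A gene with both its own probe set and a shared one thus enters through both. Fits were made within each table by limma 3.58.1, run under R 4.3.3 (empirical Bayes, Benjamini-Hochberg adjustment over 5698 genes). The RNA came from biological replicates, and 3 arrays for each group limit the precision. Same-numbered cultures of the treated strains deviated together from their group means (r = 0.44, 0.34 and 0.29, against at most 0.13 for other pairs), so a fit with the replicate block was an alternative. The others changed thresholds, normalization, the variance model or the genes tested, or left out each array.

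Named were the 15 largest rises and falls among DEGs whose groups do not overlap, *SKY1*, and members of fixed gene lists. *LIN1*, *GAS3*, *GUA1*, *SCJ1*, *TRS130*, *GRX8*, *PLM2*, *SUC2*, *GTO3*, *CMK2*, YMR206W and YHR033W are outside the rule and were picked with their values in view. The comparison and the lists were chosen with earlier results of these data known. Some wrongly matched list members were corrected by identity after the values were seen. The deposited annotation lacks a symbol for 880 genes, of which 374 were named from RefSeq by locus tag. The procedure was tested on simulated data. Sequences were not used here. Results for some genes are not reported here.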

Additional observations from a re-analysis of the deposited data

Results flagged for a closer look

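A pair of genes passed the thresholds in opposite directions with and without cisplatin. *MHT1*, a homocysteine methyltransferase gene of methionine salvage, read 6.01, 5.87 and 5.80 in treated W303-Δsky1 and 6.81, 6.54 and 6.61 in treated W303, a log2 difference of -0.76 (limma, adjusted p = 5.42e-05). Without cisplatin it read 5.29, 5.19 and 5.17 in W303-Δsky1 and 4.44, 4.47 and 4.56 in W303, a log2 difference of 0.73 (limma, adjusted p = 0.000112). *FIT2*, of siderophore iron retention, read 6.20, 6.55 and 6.27 in treated W303-Δsky1 and 4.68, 4.91 and 4.93 in treated W303, a log2 difference of 1.50 (limma, adjusted p = 3.62e-06). Without cisplatin it read 3.47, 3.64 and 3.46 in W303-Δsky1 and 4.25, 4.45 and 4.21 in W303, a log2 difference of -0.78 (limma, adjusted p = 0.000265). In each comparison the arrays of the strains did not overlap. That the strain difference changes with the drug was not tested for these genes, because the tables were normalized separately, and they are 2 among 5698.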

How the results depend on the processing

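With no threshold on fold change the treated comparison gave 1628 upregulated and 1899 downregulated genes and the untreated one 1199 and 1306. With a 2-fold threshold the counts were 196 and 236 under cisplatin, and 80 and 79 without it. Every other setting kept the counts within 1.5 times those reported. Leaving out each array in turn gave 488 to 529 upregulated and 617 to 657 downregulated genes under cisplatin, and 273 to 326 and 292 to 329 without it, and 937 of the 1136 treated DEGs were called each time. Counts of gene groups also moved in these treated fits. Downregulated genes numbered 7 to 10 for RNA polymerase I, 7 to 9 for glutamate and glutamine, and 5 to 6 for the AdoMet cycle and salvage. For the spliceosome 12 to 15 fell, and for aminoacyl-tRNA synthetases 2 to 4. Upregulated genes numbered 6 to 9 for iron uptake, 6 to 8 for NAD and 10 to 12 for fatty acid oxidation. The replicate block gave 503 and 638 genes, held each of the 1136 DEGs, and gave 284 and 302 without the drug. Quantile normalization, cyclic loess and median centring gave 50.3%, 50.9% and 49.4% of the calls as upregulated, against 44.0%. A set of 382 DEGs was followed, namely those named here and all DEGs of the gene lists, some of which are not named. Of these, 60 fell under a threshold in at least 1 of the other normalizations, the other variance model, the replicate block or the fits without an array, and 0 changed sign in these. The stricter thresholds were not followed for single genes, and a 2-fold threshold removes every gene with a difference under 1 on the log2 scale. *RGI1*, not a DEG, had between -0.033 (without W303-Δsky1 cisplatin replicate 3) and 0.11 (without W303-Δsky1 cisplatin replicate 1), with -0.017 without W303 cisplatin replicate 1 and -0.015 without W303-Δsky1 cisplatin replicate 2. *GUA1*, also not a DEG, had 0.0022 with quantile normalization, 0.024 with median centring, and between -0.036 (without W303-Δsky1 cisplatin replicate 3) and 0.028 (without W303-Δsky1 cisplatin replicate 1). The cause was not tested. Signals at the background limit the size of low genes such as *SKY1*.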
